A study of Arabidopsis thaliana with 9 samples.

Results

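BGLU15 (AT2G44450), BGLU28 (AT2G44460), BGLU40 (AT1G26560) and BGLU45 (AT1G61810) are 4 members of the beta-glucosidase family of Arabidopsis thaliana, and each is read by 1 probe set on the Affymetrix ATH1 array. They were chosen for low levels in the jmj24 mutant. Among the family loci whose jmj24 and wild-type readings do not overlap, they have the largest differences below wild type, and they are 4 of the 13333 loci measured under a name. Among all 22746 probe sets their differences ranked 203 (BGLU45), 231 (BGLU28), 285 (BGLU40) and 776 (BGLU15) from the lowest. Total RNA came from seedlings, aged 9 days by the extraction protocol, although the growth protocol gives 10 to 14 days. The groups were the jmj24 mutant, a stock-centre line labelled as mutant in JMJ24 (AT1G09060), then 35S::JMJ24, a line made by Agrobacterium-mediated transformation in which the viral 35S promoter drives JMJ24, and WT, which is Col-0. Each genotype had 3 arrays. The labels do not say how many independent transformants the 35S::JMJ24 line represents, what its background genotype is, or whether the 3 arrays of a genotype hold separately grown seedlings. The p-values below therefore measure the spread between these arrays, which may be technical. JMJ24 itself has no named probe set among those analysed, and the labels were not checked against its level.

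Beta-glucosidases cut the terminal glucose from small glucosides. Plants keep many defence compounds, flavonols and lignin precursors as glucosides, which are inert or easy to store, and removing the glucose releases the active or usable form. In Arabidopsis the family includes the myrosinases, which open glucosinolates when tissue is wounded. BGLU15 hydrolyses flavonol bisglycosides, and BGLU28 is known for breaking down glucosinolates when sulfur is short. BGLU45 hydrolyses monolignol glucosides such as coniferin, a lignin precursor.

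Across the 22746 probe sets tested, the fit called 259 between jmj24 and WT, 4 between 35S::JMJ24 and WT, and 56 between jmj24 and 35S::JMJ24, with limma at an adjusted p under 0.05. Any 2 arrays correlated between 0.9918 and 0.9976 over probe sets. All values are log2 levels, read as such from their range. A level is comparable between arrays for 1 probe set, so levels are not used to compare amounts of transcript between genes. Across probe sets they serve only to mark background, to sort by brightness and to pick the probe set of a locus. All 36 readings of the 4 genes lay above the brightest of 27 bacterial control probe sets (mean 5.80 over the arrays), which is used here as a mark of background. In seedlings, fewer cells that make a transcript and less transcript per cell cannot be told apart.

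The comparison of jmj24 with WT is the one that chose the genes, and its values are a description with no test. BGLU45, the monolignol glucosidase, stood furthest apart. It read 7.42, 7.35 and 7.34 in the jmj24 arrays, 8.15, 7.98 and 7.90 in the 35S::JMJ24 arrays, and 8.02, 7.90 and 8.05 in the WT arrays. All jmj24 readings lay below all others, by a gap of 0.48, while the 35S::JMJ24 and WT readings overlapped. The mean was 7.37 ± 0.040 in jmj24 and 7.99 ± 0.079 in WT (SD, n = 3 each), a log2 difference of -0.62 (SE 0.078), which puts the jmj24 level at 65.2% of WT. The residual SD of BGLU45 within genotypes was 0.0892, and 31.4% of probe sets had a smaller one.

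BGLU28, the glucosinolate-degrading enzyme of sulfur shortage, read 6.78, 6.60 and 6.85 in jmj24, 6.58, 7.29 and 6.86 in 35S::JMJ24, and 7.64, 7.16 and 7.19 in WT. The jmj24 arrays lay below the WT arrays, and the 35S::JMJ24 arrays spanned both, from the lowest of the 9 readings to one above 2 of the WT arrays. Its mean was 6.74 ± 0.13 in jmj24 and 7.33 ± 0.27 in WT (SD, n = 3 each), a log2 difference of -0.59 (SE 0.18), or 66.6% of the WT level. It was the least even of the 4 genes, with a residual SD of 0.268 within genotypes.

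BGLU40 read 7.44, 7.21 and 6.76 in jmj24, 7.49, 7.51 and 7.51 in 35S::JMJ24, and 7.72, 7.75 and 7.51 in WT. The spread lay almost wholly in the mutant, where the SD was 0.34, against 0.012 in 35S::JMJ24 and 0.13 in WT. The jmj24 and WT readings did not overlap, but only 0.068 separated the highest jmj24 array from the lowest WT array. The log2 difference was -0.52 (SE 0.15), or 69.7% of the WT level. Without jmj24 array 3 it was -0.33, so that 1 array moved the size by more than 1.5 times.

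BGLU15, the flavonol bisglycoside hydrolase, read 7.10, 7.23 and 7.30 in jmj24, 7.76, 7.55 and 7.49 in 35S::JMJ24, and 7.69, 7.48 and 7.44 in WT. The jmj24 arrays lay below all 6 others, and the other genotypes overlapped. The log2 difference from WT was -0.33 (SE 0.098), or 79.6% of the WT level. Array 1 was the lowest of the mutant readings and the highest of both other genotypes, and with the 3 arrays numbered 1 left out the difference was -0.20.

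**Figure D1:**
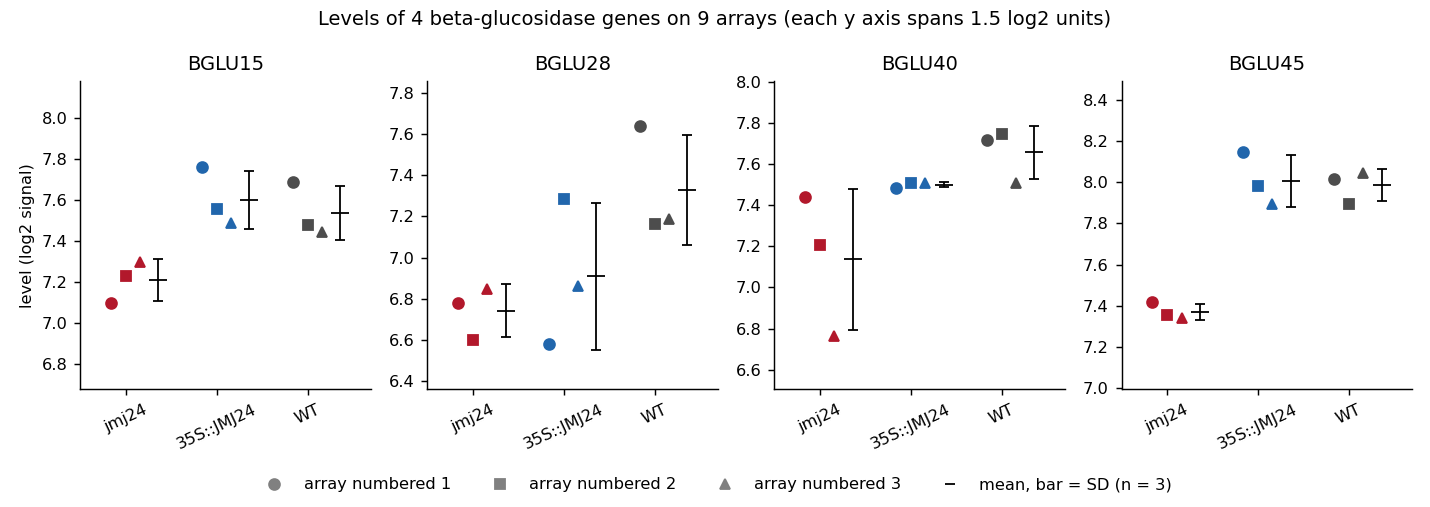
Log2 level of each gene on every array, with jmj24, 35S::JMJ24 and WT from left to right, symbols for the array number, and the mean with its SD (n = 3) beside them. The jmj24 arrays sit below the WT arrays in all 4 panels, which is how the genes were chosen, and the 35S::JMJ24 arrays overlap WT for BGLU15, BGLU28 and BGLU45.

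Of the 4 genes, 1 (BGLU45) was among the probe sets called lower in jmj24 by limma, where 0.831% of all probe sets were called lower. For 4 of 4 the jmj24 and WT readings did not overlap, with jmj24 lower, which held for 8.47% of all probe sets. Because this contrast chose the genes, nothing is read from these counts. By mean difference alone the choice would have taken BGLU19 (-0.55) before BGLU40 and BGLU15. BGLU19 read 8.45, 7.28 and 7.57 in jmj24 and 8.51, 8.35 and 8.08 in WT, so its groups overlapped through jmj24 array 1. The 4 genes are therefore the largest differences among family loci whose groups do not overlap. BGLU15 at -0.33 lay just inside that choice and BGLU33 at -0.30 just outside it, with 9.74, 9.61 and 9.68 in jmj24 against 9.97, 10.05 and 9.93 in WT.

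The 35S::JMJ24 arrays took no part in the choice, so their comparison with WT can be tested. It shares the WT arrays with the comparison that chose the genes and is not independent of it. That choice favours genes with high WT readings, which lowers the 35S::JMJ24 minus WT differences. None of the 4 genes passed in 35S::JMJ24 by limma at an adjusted p under 0.05. Over all probe sets 0.0176% were called in either direction. An unadjusted limma p under 0.05 held for 1 of the 4 (BGLU28) and for 7.43% of all probe sets. BGLU45 averaged 8.01 ± 0.13 in 35S::JMJ24 and 7.99 ± 0.079 in WT (SD, n = 3 each), a log2 difference of 0.02 with a 95% interval of -0.16 to 0.20 (limma, adjusted p = 0.959). BGLU15 averaged 7.60 ± 0.14 in 35S::JMJ24 and 7.54 ± 0.13 in WT, a log2 difference of 0.06 with an interval of -0.16 to 0.28 (limma, adjusted p = 0.882). Both small positive differences turned negative without 35S::JMJ24 array 1, to -0.05 for BGLU45 and -0.02 for BGLU15, and that of BGLU45 also without WT array 2 (-0.02).

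BGLU40 averaged 7.50 ± 0.012 in 35S::JMJ24 and 7.66 ± 0.13 in WT, a log2 difference of -0.16 with an interval of -0.49 to 0.18 (limma, adjusted p = 0.806). The fit pools the spread within all genotypes, so this interval also holds the jmj24 spread (SD 0.34). The 35S::JMJ24 readings of BGLU40 all lay below WT, by 0.0028 at the nearest, and 4.48% of all probe sets showed such a separation downward. BGLU28 averaged 6.91 ± 0.36 in 35S::JMJ24 and 7.33 ± 0.27 in WT, a log2 difference of -0.42 with an interval of -0.83 to -0.0086, and did not pass (limma, adjusted p = 0.661, unadjusted p = 0.0463). It ranked 125 from the lowest among the 22746 differences of that comparison. The value was -0.26 without 35S::JMJ24 array 1, -0.27 without WT array 1, and -0.10 with the 3 arrays numbered 1 left out. Two-sided exact permutation tests over the arrays gave p = 1 for BGLU45, 0.5 for BGLU15, 0.1 for BGLU40 and 0.3 for BGLU28, where 3 arrays against 3 cannot go below 0.1.

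Of 6 root and root hair markers 4 were measured under a name (PYK10, NAI2, EXPA7 and EXPA18). WT array 1 held the lowest of the 9 readings of both root hair expansins and not of PYK10 or NAI2. The mean log2 level of the 4 markers lay between 9.73 and 9.76 in jmj24, 9.75 and 9.87 in 35S::JMJ24, and 9.37 and 9.73 in WT. EXPA18 read 6.95 in WT array 1, where BGLU28 had its highest reading, against 7.73 and 7.61 in the other WT arrays. EXPA7 read 5.53 there, under the mark of background, against 6.16 and 5.96. NAI2 read 11.46 in WT array 1, against 11.44 and 11.53 in the other WT arrays, and PYK10 read 13.53, against 13.62 and 13.58. The part of root material in the BGLU28 values was not tested. No marker of the leaf, seed storage or xylem lists was measured under a name.

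Set side by side, the order of genotypes differed among the 4 genes. For BGLU45 and BGLU15 the order from low to high was jmj24, WT, 35S::JMJ24, and the upper neighbours did not differ beyond their spread. For BGLU28 and BGLU40 it was jmj24, 35S::JMJ24, WT, where the BGLU28 readings of 35S::JMJ24 overlapped both neighbours and the BGLU40 readings cleared them by 0.044 and 0.0028. The jmj24 minus 35S::JMJ24 differences, which share the arrays that chose the genes and carry no test, were -0.64 for BGLU45, -0.39 for BGLU15, -0.36 for BGLU40 (-0.18 without jmj24 array 3) and -0.17 for BGLU28 (between -0.33 and 0.0219 with 1 array left out). Of the 4, BGLU45 was among the probe sets called lower in jmj24 than in 35S::JMJ24, where 0.22% of all were. For 3 of the 4 (all but BGLU28) the jmj24 and 35S::JMJ24 readings did not overlap, with jmj24 lower, which held for 7.14% of all probe sets. Because the jmj24 readings chose the genes, nothing is read from these counts either. The BGLU45 call was lost without any 1 of jmj24 arrays 2 and 3 or 35S::JMJ24 arrays 1 and 2, and the BGLU28 difference turned positive without 35S::JMJ24 array 2. Within genotypes the 4 genes did not move as a block. The deviations of their 9 readings from the genotype means correlated, pair by pair, between -0.32 (BGLU15 with BGLU40) and 0.47 (BGLU15 with BGLU45), a description over arrays that share their hybridisation and normalization.

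Of 48 family loci, 22 were measured under a name and alone on a probe set, and 1 further probe set is shared by BGLU21 and BGLU22, whose transcripts it cannot separate. Besides the 4 genes, 18 loci remain. None of these 18 passed in any of the 3 comparisons by limma at an adjusted p under 0.05, and 1 in jmj24 against WT (BGLU33), 0 in 35S::JMJ24 against WT and 3 in jmj24 against 35S::JMJ24 had an unadjusted p under 0.05. Over all probe sets 1.14%, 0.0176% and 0.246% were called in these comparisons in either direction, and 11.7%, 7.43% and 6.33% had an unadjusted p under 0.05. In jmj24 against WT, 13 of the 18 had a lower mean in jmj24, as did 10903 of all 22746 probe sets. The median log2 difference was -0.077, against 0.0061 over all probe sets. Of the 18, 10 lay above the mark of background, and 7 of these had a lower mean in jmj24. In 35S::JMJ24 against WT, 14 of 18 had a lower mean, as did 8 of the 10 above the mark and 9755 of all 22746 probe sets. The median in 35S::JMJ24 against WT was -0.054, against 0.020 over all probe sets. BGLU19 had the lowest value there, at 7.998, 7.85 and 7.28 in 35S::JMJ24 against 8.51, 8.35 and 8.08 in WT, a log2 difference of -0.61 (SE 0.29, limma adjusted p = 0.673). The lowest values after it were -0.12 for BGLU29 and -0.09 for BGLU32, both below the mark of background.

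At the upper end, jmj24 differences reached 0.34 for ATA27 (BGLU20), 0.12 for BGLU42 and 0.10 for BGLU24, the last below the mark of background. ATA27 passed that mark only through its jmj24 readings, with a mean of 6.05 in jmj24, against 5.66 in 35S::JMJ24 and 5.715 in WT. The 35S::JMJ24 differences reached 0.18 for BGLU46, 0.15 for BGLU41, below the mark, and 0.09 for BGLU36, also below it. After BGLU19 and BGLU33, the next low value in jmj24 was -0.27 for BGLU43, below the mark as well. In jmj24 against 35S::JMJ24 the 18 loci ranged from -0.26 for BGLU43, with BGLU33 also at -0.26 and BGLU41, below the mark, at -0.24, to 0.39 for ATA27, with BGLU42 at 0.17 and BGLU24 at 0.16. PYK10 (BGLU23), the main beta-glucosidase of root endoplasmic reticulum bodies, differed by -0.08 in jmj24 and -0.07 in 35S::JMJ24. The shared probe set of BGLU21 and BGLU22 differed by -0.08 and 0.03.

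**Figure D2:**
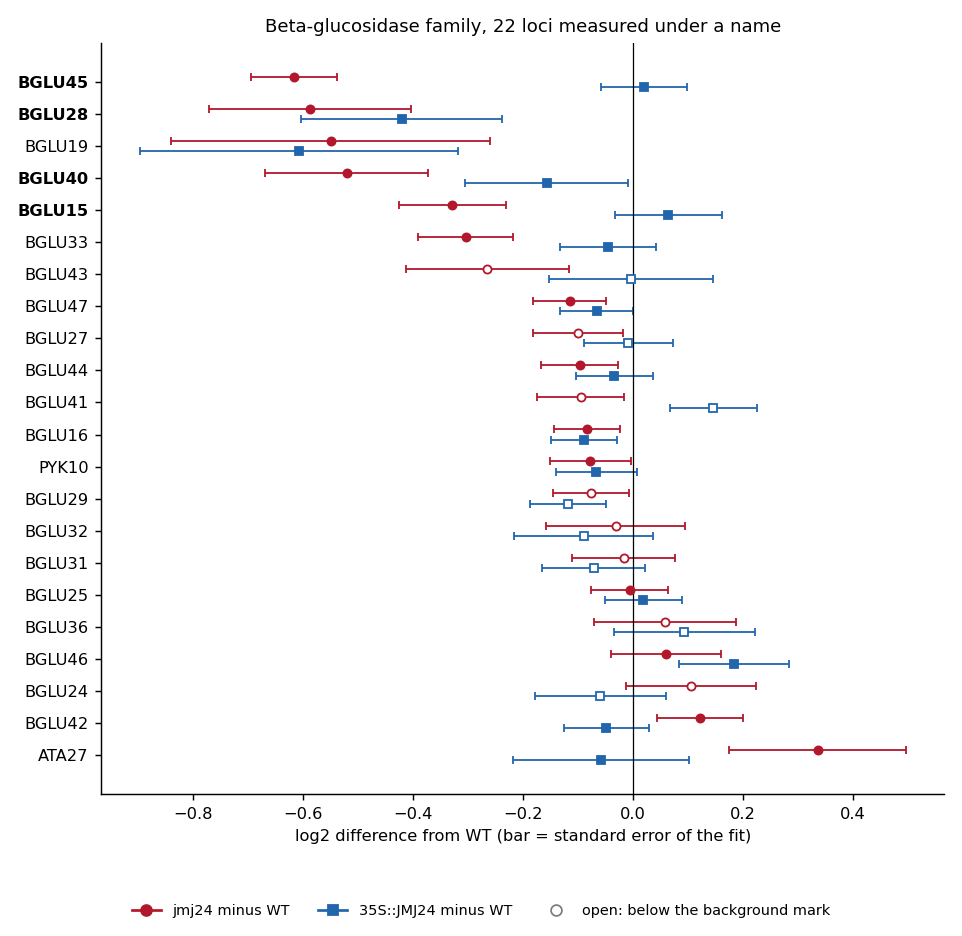
Log2 difference from WT of jmj24 (circles) and 35S::JMJ24 (squares) for the 22 family loci, ordered by the jmj24 value, with the standard error of the fit as bars, bold names for the 4 genes and open symbols for loci below the mark of background. BGLU45 and BGLU15 have a low jmj24 value beside a 35S::JMJ24 value near 0, as do BGLU33 and BGLU43, which are not among the 4. BGLU28 and BGLU19 have low values in both lines. Most of the 22 loci, BGLU40 among them, lie below 0 in both.

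The gene pair with the closest known activity gave different values. BGLU46, which like BGLU45 hydrolyses monolignol glucosides and is the next protein-coding gene along the chromosome, read 9.21, 9.05 and 9.40 in jmj24, 9.48, 9.24 and 9.31 in 35S::JMJ24, and 9.13, 9.12 and 9.23 in WT. The jmj24 and WT readings overlapped, and the difference was 0.06 (SE 0.0997), against -0.62 (SE 0.078) for BGLU45. BGLU45 was chosen for its low jmj24 readings and BGLU46 was not, so the choice itself favours such a difference. The difference between the genes was not tested. BGLU15 and BGLU28 are themselves neighbours, the first members of a run of 5 beta-glucosidase genes with no other protein-coding gene between them, of which 3 are measured under a name. The other measured gene of the run, BGLU29, lay below the mark of background on all arrays, with a mean of 3.89 in jmj24 and 3.97 in WT.

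Among the 10 nearest measured genes by gene order, 0 were called by limma in jmj24 against WT around BGLU15, BGLU28 or BGLU45, and 1 around BGLU40. Over all probe sets 1.14% were called in that comparison. The neighbours of BGLU15 and BGLU28 are largely the same genes. The called gene, AT1G26530, 4 places from BGLU40, was higher in jmj24 by 0.98 (limma, adjusted p = 0.00429). Its means, 5.70 in jmj24 and 4.72 in WT, both lay below the mark of background. The median jmj24 minus WT differences of the neighbours were 0.031 around BGLU15, 0.039 around BGLU28, -0.054 around BGLU40 and 0.055 around BGLU45. Beside the run of beta-glucosidase genes, AT2G44420 (0.08) and AT2G44430 (0.09) lay on one side. AT2G44500 on the other had the highest value, 0.64 in jmj24 and 0.50 in 35S::JMJ24, and did not pass (limma, adjusted p = 0.428 and 0.703). Next to BGLU40, AT1G26550 differed by -0.10, AT1G26540 by -0.16 and AT1G26580 by -0.03 in jmj24. AT1G61770 (0.05) and AT1G61780 (-0.03) lay on the far side of BGLU45 from BGLU46.

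**Figure D3:**
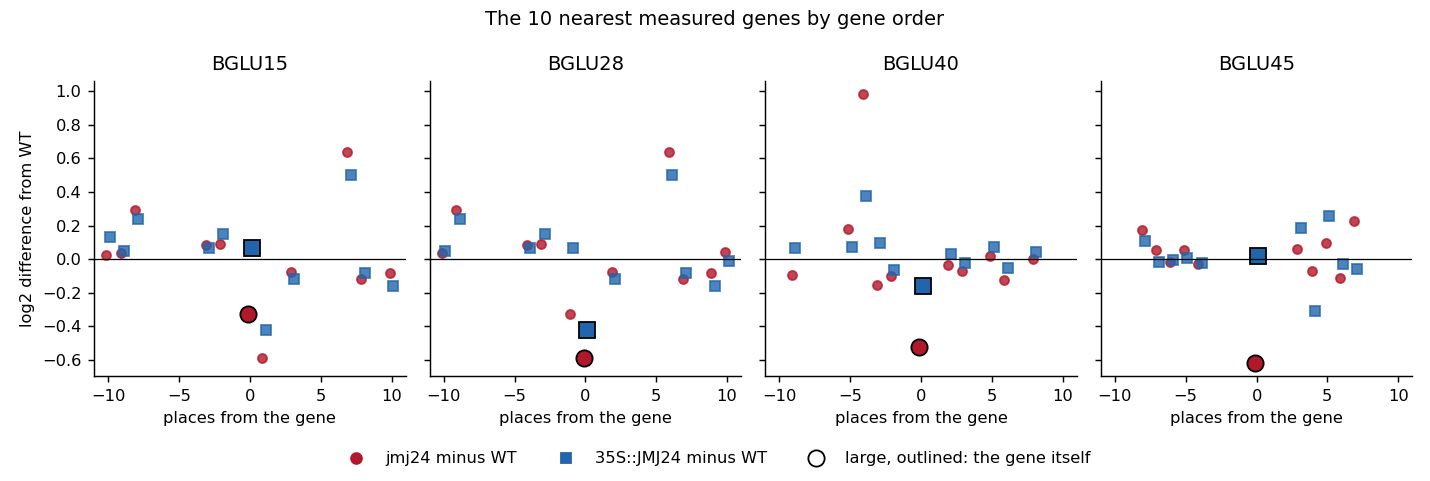
Log2 difference from WT of jmj24 (circles) and 35S::JMJ24 (squares) for the 10 nearest genes measured under a name, placed by their number of places from each gene in the gene order, with the gene itself large and outlined. BGLU40 and BGLU45 stand alone below their neighbours in jmj24, and BGLU15 and BGLU28 lie beside each other, 1 place apart.

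The genes whose readings were most alike those of each gene were taken from 9244 loci above the mark of background by Pearson correlation over the 9 arrays, a description in which the arrays share genotype and processing. The highest of so many correlations over 9 arrays are high through the search itself. Deviations from genotype means come from the same readings, so neither value tests a relation between genes. For BGLU45 the 5 closest were AT3G46370 (r = 0.9745), AT1G23120 (0.973), AT3G05640 (0.961), AT4G19450 (0.958) and AT1G51090 (0.955). Their jmj24 minus WT differences ran from -1.14 for AT3G46370 to -0.24 for AT4G19450, and the correlation of deviations from genotype means was lower, between 0.31 and 0.74. For BGLU15 they were AT4G01730 (0.980), AT2G38160 (0.968), ATC (0.962), a relative of the floral repressor TFL1, AT1G71140 (0.944) and AT5G23760 (0.940). Here the deviations within genotypes correlated between 0.80 and 0.97.

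BGLU40 was closest to AT3G52640 (0.992), AT5G19940 (0.983), AT2G01870 (0.959), AT1G02300 (0.953) and AT1G47980 (0.951). Their deviations correlated between 0.89 and 0.99, with jmj24 array 3 lowest in each, as in BGLU40. BGLU28 was closest to AT5G65760 (0.932), AT2G37420 (0.931), AT2G33730 (0.927), AT4G39630 (0.919) and the glycosyltransferase gene UGT88A1 (0.911), with deviations that correlated between 0.83 and 0.95. The jmj24 minus WT differences of these 5 were small, from -0.14 to -0.07, against -0.59 for BGLU28.

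**Figure D4:**
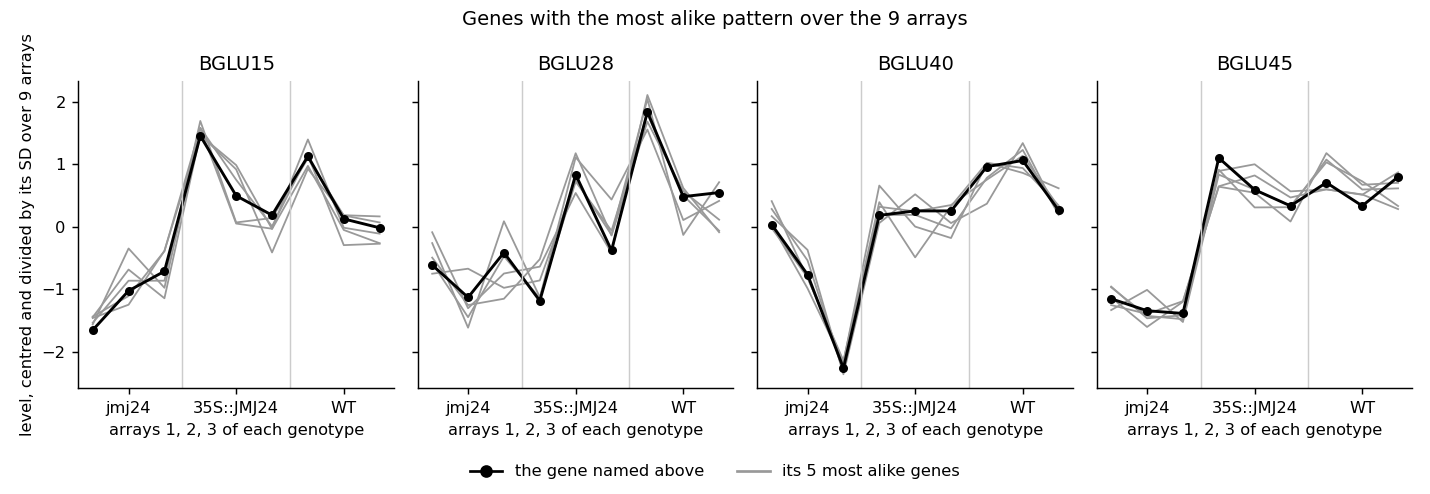
Level of each gene (black) and of its 5 most alike genes (grey) on the 9 arrays, in the order jmj24, 35S::JMJ24, WT and by array number within each, centred and divided by the SD over the 9 arrays. BGLU45 and its group form a step between jmj24 and the other genotypes. BGLU40 and its group fall from jmj24 array 1 through array 2 to array 3, which is lowest.

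The lists of genes that make or handle the substrates of these enzymes were sparsely measured under a name, and no member of any of them passed in any comparison by limma at an adjusted p under 0.05. The glucosinolate list, the pathway of BGLU28, had 3 of 31 members. UGT74B1, the glucosyltransferase that completes the glucosinolate core before sulfation, read 9.11, 9.21 and 8.97 in jmj24, 9.31, 9.10 and 9.32 in 35S::JMJ24, and 9.38, 9.51 and 9.42 in WT. Both lines lay below WT without overlap, by -0.34 in jmj24 (limma, adjusted p = 0.128) and -0.20 in 35S::JMJ24 (adjusted p = 0.661). Such a separation downward held for 8.47% of all probe sets in jmj24 and 4.48% in 35S::JMJ24, against the same WT arrays. AT2G31790 differed by -0.42 in jmj24 (adjusted p = 0.161) and -0.35 in 35S::JMJ24 (adjusted p = 0.588). BCAT4, an aminotransferase of methionine chain elongation, differed by -0.41 and -0.69 (adjusted p = 0.587 and 0.623). All 3 had an unadjusted p under 0.05 in 35S::JMJ24 and 2 had one in jmj24, where 7.43% and 11.7% of all probe sets did. The comparisons share the WT arrays. The sulfur deficiency list had 1 of 19 members, AT1G04770, which differed by -0.12 and -0.19.

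On the monolignol side, where BGLU45 acts, 5 of 25 genes were measured. HCT, a transferase on the route to coniferyl alcohol, differed by -0.34 in jmj24 (limma, adjusted p = 0.224) and -0.10 in 35S::JMJ24. Of the UGT72E enzymes, UGT72E2 and UGT72E3 put glucose onto monolignols, the reverse of the BGLU45 reaction. UGT72E1 differed by 0.31 (adjusted p = 0.230), UGT72E2 by 0.21 and UGT72E3 by 0.17 in jmj24, and by 0.12, 0.11 and 0.18 in 35S::JMJ24. CCR2, a cinnamoyl-CoA reductase below the mark of background, differed by -0.12 and -0.23. The list median was 0.17 in jmj24 and 0.11 in 35S::JMJ24.

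Of the flavonol list, the pathway to the substrates of BGLU15, 4 of 17 were measured. The glycosyltransferases UGT78D1 and UGT78D2 differed by -0.09 and -0.11 in jmj24 and by -0.05 and 0.01 in 35S::JMJ24, AT1G06000 by -0.07 and 0.01, and DFR, an anthocyanin branch enzyme below the mark, by 0.00023 and -0.13. The list of endoplasmic reticulum body genes, to which PYK10 belongs by function, had 4 of 12. The jacalin-type lectin JAL22 differed by -0.30 in jmj24 (adjusted p = 0.326) and -0.13 in 35S::JMJ24, and NAI1, NAI2 and JAL23 (below the mark) by 0.04, -0.07 and 0.03 in jmj24.

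**Figure D5:**
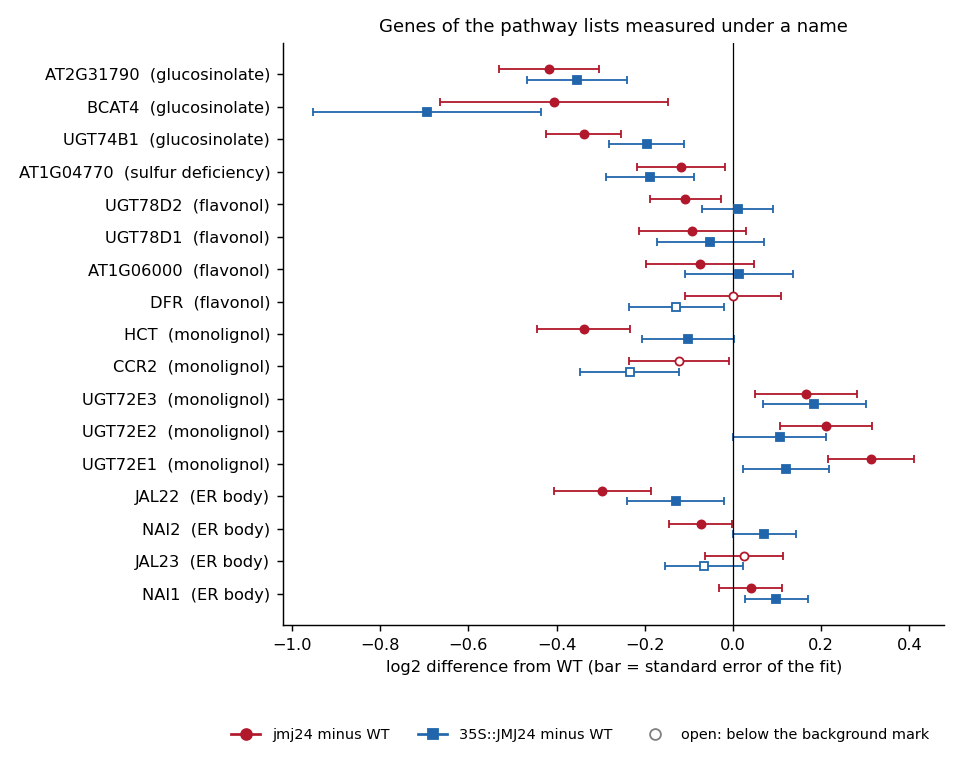
Log2 difference from WT of jmj24 (circles) and 35S::JMJ24 (squares) for the 17 pathway genes measured under a name, grouped by list, with the standard error of the fit as bars and open symbols below the mark of background. The 3 glucosinolate genes lie below 0 in both lines and the 3 UGT72E genes above 0, and none passed the test.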

How the data were processed

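Labelled RNA of 9 seedling samples was hybridised to ATH1 arrays. The deposited log2 values (1 per probe set and array) are the authors' own. The submitters' processing notes name affy, with no version. How background, normalization and probe summary were handled is not given in the sources used here. Their scale is unnamed and was read as log2, since the values span 2.634 to 14.7 and array medians 7.826 to 7.873. Every difference rests on that reading. Of 22810 probe sets 64 array controls were left out. Arrays were grouped by sample title.

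Names come from the array's GEO platform table, with symbols updated from RefSeq genes (TAIR10.1), which also gave the gene order. No build is named for the array, so no coordinates are given. Of the tested probe sets 13513 name 1 gene, 503 several and 8730 none here. Where several probe sets name a locus, the brightest stands for it.

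limma 3.58.1 in R 4.3.3 fitted 1 mean per genotype to all 9 arrays (6 residual and 3.34 prior degrees of freedom), two-sided, with Benjamini-Hochberg adjustment over all 22746 probe sets and a threshold of 0.05. The median standard error of a difference was 0.0923, and the number of arrays limits the precision. Alternatives were a replicate block, renewed quantile normalization, a filter on dim probe sets, array weights, a trended prior, fits of 2 genotypes, and arrays left out.

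The 4 genes and all lists were chosen with earlier results of these data known. The rule for names took the 4 genes, family loci past the threshold and the 3 largest differences each way, list members by smallest p, neighbours within 5 places and the 5 most alike loci. AT2G44500 is named outside it, with its values seen.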

Additional observations from a re-analysis of the deposited data

How the results depend on the processing

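The number of probe sets called between jmj24 and WT, 259, became 607 under the replicate block (241 higher), 641 with array weights (229 higher), 146 with only these genotypes in the fit, 53 without the 3 arrays numbered 1, and 124 to 229 with 1 array left out. Between 35S::JMJ24 and WT, 4 calls became 8 with array weights, 1 without the arrays numbered 1 and 2 to 4 with 1 array left out. Between jmj24 and 35S::JMJ24, 56 became 19 with only these genotypes, 2 without the arrays numbered 1 and 14 to 44 with 1 array left out. The cause was not tested. The counts of the 4 genes called in the comparisons that hold jmj24 are given as description, since those arrays chose the genes. Against WT the count was 1 with any 1 array left out and 0 without the arrays numbered 1, where the BGLU45 difference was -0.62. Against 35S::JMJ24 it was 0 in the fit of 2 genotypes and without the arrays numbered 1, and between 0 and 1 with 1 array left out. With 1 array left out, the 35S::JMJ24 minus WT difference ran from -0.0153 to 0.14 for BGLU15 and from -0.0484 to 0.0757 for BGLU45 (-0.0333 without the arrays numbered 1), and that of jmj24 minus 35S::JMJ24 from -0.33 to 0.0219 for BGLU28 and from -0.051 to 0.0014 for the median of the other family loci. The replicate block changed no call of the 4 genes. Counting calls among the 4 genes under each setting was added after seeing the data. The deviations of same-numbered arrays correlated between 0.014 and 0.438, not all above 0.1, so the numbers were not taken as pairs. The values differed by number, from 0.418 to 0.438 for arrays numbered 1, 0.014 to 0.173 for arrays numbered 2 and 0.171 to 0.303 for arrays numbered 3. Of the arrays, 5 of 9 correlated best with their own number in both other genotypes. All 4 genes lie in the dimmer 50% of probe sets, so the filter on dim probe sets gives them no value. Each has 1 probe set, so the alternative of single probe sets was not run.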

Other observations

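Exactly equal readings on different arrays are common in the deposited table. For 9171 of 22746 probe sets (40.3%) at least 2 arrays hold the same value, and so do 2 of the 4 genes. The BGLU40 readings of 35S::JMJ24 arrays 2 and 3 are equal at 7.51, which lies behind the SD of 0.012 there, and the BGLU45 readings of 35S::JMJ24 array 3 and WT array 2 are equal at 7.90. No 2 arrays hold identical values throughout.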
